A study of Homo sapiens with 38 samples.

Results

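The genes described here belong to the ATF4 program, which comprises ATF4 with its partner factors and the genes of amino acid synthesis, amino acid transport and tRNA charging that ATF4 is known to activate. A list of 41 genes was looked up by current symbol (AARS1 was AARS, and so on) through the RefSeq identifiers of the expression table, and 40 of them had a row among the 12627 genes of that table. VLDLR, a lipoprotein receptor gene, had no row and was not analysed here. Of the 40 genes, 10 encode transcription factors and regulators, 9 encode enzymes of amino acid and one-carbon metabolism, 8 encode amino acid transporters, and 13 encode cytosolic aminoacyl-tRNA synthetases or the tRNA export receptor XPOT. The list was drawn up after ASNS and PCK2 had been seen to be low in cells in which VPS4B alone was silenced. Values from those cells therefore selected the genes, and they are given below as a description with no test. A level is low only beside controls, so control libraries that serve in the tests below also had a part in the choice.

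ATF4 is a basic leucine zipper transcription factor whose translation rises when the initiation factor eIF2 is phosphorylated by a kinase that senses amino acid shortage, unfolded proteins, heme shortage or double-stranded RNA. Together with C/EBP partners it binds C/EBP-ATF response elements and activates genes that restore amino acid supply. It also activates the feedback regulator TRIB3, and CHAC1, which degrades glutathione. Cancer cells draw on this program for serine, glycine and asparagine synthesis. VPS4A and VPS4B are the paralogous ATPases that take apart ESCRT-III filaments at membranes.

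RNA was measured in HCT116 cells, an established human colorectal carcinoma line of epithelial origin, collected 72 h after transfection. Non-transfected cells (NT, 4 libraries) and cells given 60 nM of the non-targeting duplex siCTRL#1 (5 libraries) served as references, and siCTRL#2 (4 libraries, dose not given in the sources used here) was a further non-targeting duplex. For single silencing, 30 nM of siVPS4A#1, siVPS4A#2, siVPS4B#1 or siVPS4B#2 was mixed with 30 nM of siCTRL#1. For combined silencing, siVPS4A+B#1 joined siVPS4A#2 to siVPS4B#1 and siVPS4A+B#2 joined siVPS4A#1 to siVPS4B#2, each duplex at 30 nM. Each silenced condition had 4 libraries in the tests. Replicate numbers 1 to 5 are batches in the labels, of 4 biological replicates plus a further batch, number 5, which holds siCTRL#1 and siVPS4A#1 alone.

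Levels are given in rpm (reads per 1e6 reads), computed from reads recovered from the deposited shares and scaled with TMM factors. The 37 libraries used held between 5090666 and 11035293 reads, and a level resting on 3 reads or fewer, at most 0.589 rpm, was taken as being at the floor, a limit that covers counting error only. The library labelled siVPS4A#1 replicate 2 held 669257 reads. Across genes its profile had a Pearson r of -0.099 with the other siVPS4A#1 libraries and of 0.677 with siVPS4A+B#1, and it was left out. It held VPS4A at 11.3 rpm and VPS4B at 1.62 rpm, where the other 4 siVPS4A#1 libraries held VPS4B at 21.4 to 32.1 rpm, so its VPS4B level goes against its label. VPS4A, the gene targeted by siVPS4A, stood at 3.52, 1.63, 1.88 and 1.71 rpm with siVPS4A#1, at 5.89, 6.20, 8.93 and 10.5 rpm with siVPS4A#2, and at 173 to 325 rpm (median 201.3) in NT and siCTRL#1. In the pairs it stood at 12.9, 33.9, 22.4 and 10.6 rpm with siVPS4A+B#1 and at 3.05, 7.69, 4.32 and 5.05 rpm with siVPS4A+B#2. Every siVPS4A+B#1 library lay above every library given the same duplex, siVPS4A#2, in single silencing, while siVPS4A+B#2 and siVPS4A#1 overlapped. The part of this difference in the results below was not tested. VPS4B had at most 1.57 rpm in the libraries that received a VPS4B duplex. The epithelial markers EPCAM, CDH1, KRT8, KRT18 and KRT19 summed to between 4331 and 8167 rpm, while VIL1, CDH17 and LGALS4 of the same list had no row. Of 12 markers of other cell types 6 had a row, CD68, LYZ, PECAM1, COL1A1, ACTA2 and PDGFRB. LYZ, PECAM1 and PDGFRB were at 0 in some libraries and at most at 1.75 rpm. The summed level of the 6 was 31.9 to 58.4 rpm in NT and siCTRL#1 and 35.9 to 61.0 rpm with siVPS4A#2. Fold changes are log2 values of rpm plus 1 with standard errors (SE), from 1 limma model in which the replicate number was a block. Adjusted p-values are limma's, adjusted over all 12627 genes. Calls required a change of at least 1.5-fold with an adjusted p below 0.05. In RNA from whole cultures, fewer cells of a kind and less RNA per cell cannot be told apart, and each gene is read through a short amplicon, so levels were compared between conditions and not between genes.

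C/EBP-ATF response elements resemble the word TGATGCAA. RefSeq promoter windows of 300 bases, 250 before each start site and 50 from it onward, were searched on both strands, and 32 of the 40 genes had at least 1 window. The word TGATGCAA, or TTGCATCA on the opposite strand, was found for 10 of these 32 genes (31.3%), against 1.08% of 27305 genes with a window. The looser word TGATGNAA, which includes the first, was found for 14 of 32 (43.8%), against 4.46% of these 27305 genes. Among the 10205 genes with a window that are in the expression table, the shares were 0.745% and 2.68%. The list holds genes that ATF4 is known to activate, so its choice in part fixed an excess of these words. The stretches of these windows shown here, from GRCh38.p14, were chosen because their genes were among those that fell with siVPS4A#1. Capitals mark the matched word.
CEBPG (GRCh38, chr19:33374045-33374104, plus strand): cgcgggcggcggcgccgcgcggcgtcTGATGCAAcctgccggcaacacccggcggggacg
CHAC1 (GRCh38, chr15:40953236-40953295, plus strand): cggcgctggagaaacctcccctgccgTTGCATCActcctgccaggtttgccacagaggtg
ASNS (GRCh38, chr7:97872443-97872502, minus strand): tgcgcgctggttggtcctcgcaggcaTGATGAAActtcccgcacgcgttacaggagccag
SLC1A4 (GRCh38, chr2:64989366-64989425, plus strand): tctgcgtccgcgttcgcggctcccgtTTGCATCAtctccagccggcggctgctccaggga
SLC1A5 (GRCh38, chr19:46784878-46784937, minus strand): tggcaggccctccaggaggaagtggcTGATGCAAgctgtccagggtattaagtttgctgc
AARS1 (GRCh38, chr16:70289660-70289719, minus strand): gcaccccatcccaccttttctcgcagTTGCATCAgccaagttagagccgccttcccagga
CARS1 (GRCh38, chr11:3057394-3057451, minus strand): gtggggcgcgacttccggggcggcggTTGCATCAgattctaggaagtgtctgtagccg
MARS1 (GRCh38, chr12:57488038-57488097, plus strand): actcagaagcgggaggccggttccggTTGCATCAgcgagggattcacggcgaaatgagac
The ASNS window holds the looser word, in a stretch known as the nutrient-sensing region of that promoter. IARS1, TARS1 and NARS1 also held TGATGCAA, and GARS1, SLC3A2 and SLC7A1 held the looser word. A match describes the letters of a window and was not tested as a binding site.

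In cells given siVPS4A#1 most of the program was lower. Against both NT and siCTRL#1, 28 of the 40 genes were called lower, among 8.85% of all genes, and 0 were called higher, among 5.73% of all genes. The count called higher was 0 in limma also at an unadjusted p below 0.05, and 0 in DESeq2 and in edgeR. The calls covered 7 of 10 regulators, 8 of 9 enzymes, 6 of 8 transporters and 7 of 13 genes of tRNA charging and export. Against siCTRL#1 the 40 genes had a median log2 fold change of -1.24, with 39 of them below 0, while the median of all genes was 0.01. The markers of other cell types summed to 63.4 to 95.4 rpm in these 4 libraries, above NT and siCTRL#1, with COL1A1 at 33.8 to 61.1 rpm. Their part in the result was not tested. With the left-out library included, 24 genes were called lower. With siCTRL#2 as the control, 28 genes were called lower, among 14.6% of all genes, and 1, ATF5, higher, among 15.3%. Within batches the median difference from siCTRL#1 over the 40 genes was -1.52 in replicate 1, -0.87 in replicate 3, -1.94 in replicate 4 and -0.90 in replicate 5.

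Among the regulators, ATF4 itself (NM_182810) had 394, 316, 225 and 254 rpm in the siVPS4A#1 libraries. In the 9 NT and siCTRL#1 libraries it ranged from 434 to 1185 rpm, with a median of 616, so the groups did not overlap. Its log2 fold change was -0.89 ± 0.20 against NT (limma, adjusted p = 0.000616) and -1.33 ± 0.19 against siCTRL#1 (adjusted p = 2.72e-07). TRIB3, a pseudokinase that binds ATF4 and restrains it, had 34.4, 31.8, 23.2 and 18.7 rpm with siVPS4A#1, or 10.8% of the siCTRL#1 mean. Its control libraries ranged from 115 to 817 rpm, with a median of 226. All 4 siVPS4A#1 libraries lay below these, with a log2 fold change of -3.40 ± 0.30 against NT (limma, adjusted p = 6.83e-12). CHAC1, which degrades glutathione, had 41.2, 12.3, 8.41 and 10.6 rpm, of which only replicate 1 reached the lower end of its controls, which ranged from 33.4 to 334 rpm, with a median of 97.6. Against siCTRL#1 CHAC1 fell by 3.17 on the log2 scale, and against NT by 1.99. NUPR1, a small stress-induced chromatin protein, was low throughout and had 1.81, 0.627, 0.221 and 1.10 rpm with siVPS4A#1, against 1.86 to 31.0 rpm (median 5.96) in the controls. CEBPB, a C/EBP factor that pairs with ATF4, had 5.33, 5.01, 5.31 and 6.11 rpm with siVPS4A#1. It ranged from 10.6 to 27.5 rpm (median 12.4) in the controls, which the siVPS4A#1 libraries did not reach.

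The other regulators called lower were CEBPG, a dimer partner of ATF4, with a log2 fold change of -1.19 against siCTRL#1, and STC2, a secreted glycoprotein, with -1.65. DDIT4, an inhibitor of mTORC1, passed against siCTRL#1 (-1.14) and not against NT (-0.56, limma, adjusted p = 0.092). ATF5, a related bZIP factor, had 62.6, 64.8, 61.1 and 67.9 rpm with siVPS4A#1 and 36.2 to 110.1 rpm (median 53.8) in the controls, so its libraries lay among them. Its log2 fold change of 0.16 against siCTRL#1 had a 95% interval of -0.30 to 0.63. DDIT3 (CHOP), the factor that links the program to cell death, was at or near the floor in all conditions, with 0 to 6 reads in any library. It had 0.107, 0, 0.111 and 0 rpm with siVPS4A#1 and 0.0946 to 0.434 rpm (median 0.169) in the controls, and no change was detectable at this depth.

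The enzymes had a median log2 fold change of -1.73 against siCTRL#1 and of -1.59 against NT, where the transporters had -1.61. ASNS, which makes asparagine, had 39.2, 21.9, 14.2 and 11.1 rpm with siVPS4A#1, or 10.4% of the siCTRL#1 mean. Its controls ranged from 84.3 to 368 rpm, with a median of 144, and no siVPS4A#1 library reached them. The log2 fold change was -2.74 ± 0.27 against NT and -3.17 ± 0.25 against siCTRL#1 (limma, adjusted p = 2.54e-13). PCK2, the mitochondrial enzyme that makes phosphoenolpyruvate, had 18.1, 9.15, 7.74 and 5.50 rpm, or 8.63% of the siCTRL#1 mean. In the controls PCK2 ranged from 56.8 to 196 rpm, with a median of 82.8, again without overlap, and its log2 fold change against siCTRL#1, -3.34 ± 0.24, was the lowest of the 40 genes. PHGDH, which opens serine synthesis, had 51.1, 47.3, 35.1 and 40.3 rpm with siVPS4A#1, and 220.0 to 597 rpm (median 333) in the controls. The following enzyme of that pathway, PSAT1, had 147, 115, 86.5 and 84.7 rpm, and 231 to 630.2 rpm (median 367) in the controls. Both lay below every control library, with log2 fold changes against siCTRL#1 of -3.08 ± 0.23 for PHGDH and -1.87 ± 0.20 for PSAT1.

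PSPH, the last enzyme of serine synthesis, was the 1 enzyme not called, with 46.7, 51.0, 43.7 and 39.2 rpm with siVPS4A#1 and controls that ranged from 42.3 to 79.3 rpm, with a median of 57.2. The groups overlapped, and 1 siVPS4A#1 library, replicate 5, lay below every control. Its log2 fold change against siCTRL#1 was -0.28, with a 95% interval of -0.58 to 0.03. GPT2, the mitochondrial alanine transaminase, had 12.6, 6.77, 10.7 and 8.55 rpm and fell by 1.73 on the log2 scale against siCTRL#1. No siVPS4A#1 library reached its controls, which ranged from 18.5 to 52.0 rpm, with a median of 32.6. SHMT2, which passes the serine carbon to folate in mitochondria, had 135, 111, 128 and 98.6 rpm, below controls that ranged from 152 to 226 rpm, with a median of 200.9. Its log2 fold change against siCTRL#1 was -0.65, but it was 0.43 against siCTRL#2, the opposite sign. MTHFD2, the mitochondrial methylene-folate dehydrogenase, fell by 1.45, and ALDH1L2, a mitochondrial formyl-folate dehydrogenase, by 1.08, the latter on 7 to 14 reads a library.

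Of the 8 transporters, 6 fell. SLC7A11, the cystine carrier of system xc-, had 48.3, 31.7, 28.1 and 26.3 rpm with siVPS4A#1 and 84.8 to 269 rpm (median 135) in the controls. SLC7A5, the large neutral amino acid carrier, had 462, 293, 271 and 278 rpm, and 886 to 1819.7 rpm (median 1114) in the controls. Neither gene's siVPS4A#1 libraries overlapped the controls, and the log2 fold changes against siCTRL#1 were -2.28 ± 0.23 for SLC7A11 and -1.96 ± 0.19 for SLC7A5. SLC1A4, a carrier of alanine, serine and cysteine, fell by 2.67 on the log2 scale against siCTRL#1, and the cationic amino acid carrier SLC7A1 by 1.55. SLC3A2, the heavy chain shared by SLC7A5 and SLC7A11, fell by 1.5, and the glutamine carrier SLC1A5 by 1.28. SLC38A2, a system A carrier of small neutral amino acids, had 650.0, 539, 593 and 594 rpm, and 595 to 1642 rpm (median 975) in the controls. Only replicate 1 lay within that range. The gene passed against NT (-0.96) but not against siCTRL#1 (-0.38), and the glycine carrier SLC6A9 held at most 12 reads in any library and was not called.

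Among the synthetases, which join amino acids to their tRNAs, the calls were AARS1, CARS1, GARS1, LARS1, MARS1, NARS1 and YARS1. GARS1, the glycyl-tRNA synthetase, and AARS1, the alanyl-tRNA synthetase, had the lowest fold changes against siCTRL#1, -1.82 ± 0.17 and -1.75 ± 0.15. YARS1, the tyrosyl-tRNA synthetase, had 89.5, 85.2, 73.3 and 70.1 rpm with siVPS4A#1 and 94.7 to 290.3 rpm (median 135) in the controls, which its libraries did not reach. CARS1 fell by 1.17, MARS1 by 0.87, LARS1 by 0.80 and NARS1 by 0.70 on the log2 scale against siCTRL#1. Among these the MARS1 libraries overlapped the controls. The other 6 genes had log2 fold changes against siCTRL#1 of -0.68 for WARS1, -0.63 for SARS1, -0.54 for IARS1, -0.51 for XPOT, -0.41 for TARS1 and -0.33 for EPRS1, and none of them passed against both controls.

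**Figure D1:**
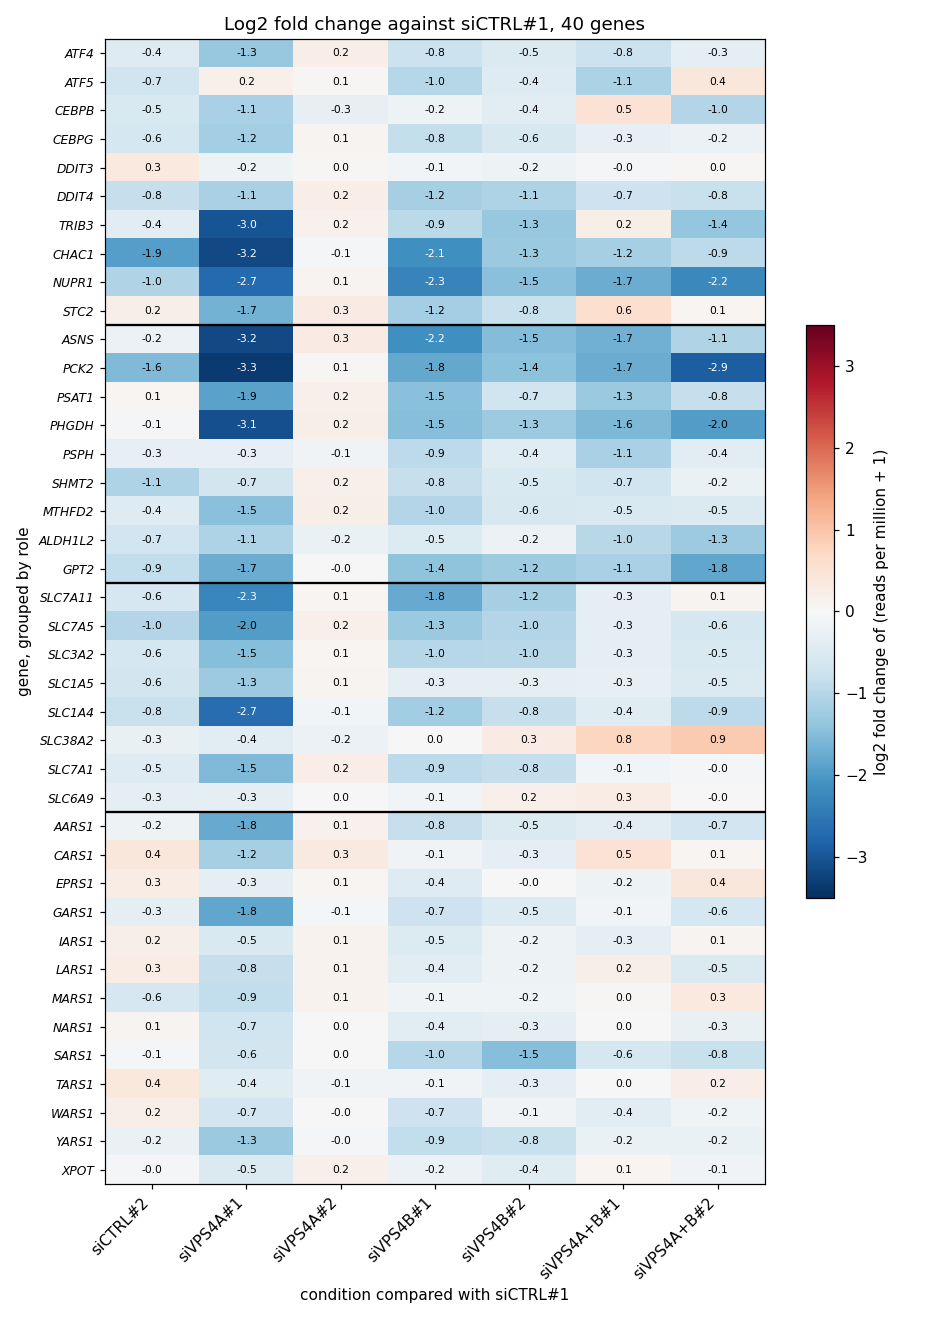
Log2 fold change of rpm plus 1 against siCTRL#1 (colour and printed value) for 40 genes in rows, grouped by role and separated by lines, and 7 conditions in columns. The siVPS4A#1 column is below 0 for 39 of 40 genes and the siVPS4A#2 column for 11, with values between -0.29 and 0.32; the siVPS4B columns selected the genes and carry no test.

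With the other VPS4A duplex no gene of the list passed against both controls. With siVPS4A#2, 0 of 40 genes were called lower against both controls, among 0.0317% of all genes, and 0 were called higher, among 0% of all genes. Both counts were also 0 at an unadjusted p below 0.05 in limma, and in DESeq2 and edgeR. ASNS had 342, 267, 172 and 212 rpm with siVPS4A#2, PCK2 had 151, 151, 90.1 and 98.4 and PHGDH had 613, 581, 272 and 433. These lay among or above the control libraries. ATF4 had 1201, 1012, 816 and 748 rpm, TRIB3 had 433, 345, 159 and 202 and SLC7A11 had 261, 207, 142 and 136. The log2 fold changes of the 40 genes against siCTRL#1 lay between -0.29 and 0.32, with a median of 0.08, and that of ASNS, 0.28, had a 95% interval of -0.23 to 0.79. ATF4 was called higher against NT alone, by 0.67 on the log2 scale (limma, adjusted p = 0.0161). The count depended on the control, since with siCTRL#2 in place of NT and siCTRL#1, 17 genes were called higher with siVPS4A#2, among 11.1% of all genes, and 0 lower, among 6.15%.

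The duplexes were also compared directly, 4 libraries against 4. With siVPS4A#1, 33 of 40 genes were called lower than with siVPS4A#2, among 12.3% of all genes, and 0 were called higher, in limma also at an unadjusted p below 0.05 and in DESeq2 and edgeR, among 9.92% of all genes. Left out of the 33 were ATF5, DDIT3, PSPH, SLC38A2, SLC6A9, EPRS1 and TARS1. ASNS differed most, by -3.45 ± 0.27 on the log2 scale (limma, adjusted p = 3.79e-13), followed by PCK2 at -3.40, PHGDH at -3.27 and TRIB3 at -3.17. Within batches that held both duplexes, the median difference over the 40 genes was -1.64 in replicate 1, -1.04 in replicate 3 and -1.36 in replicate 4. With the left-out library 29 genes were called. These libraries are those of the comparisons with NT and siCTRL#1 above, so the result is the same siVPS4A#1 libraries set against other ones.

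With both paralogs silenced, 6 of the 9 enzymes were lower. Each pair was set against NT and against siCTRL#1, and 6 of 40 genes were called lower in all 4 comparisons, among 4.16% of all genes, and 0 were called higher, in limma also at an unadjusted p below 0.05 and in DESeq2 and edgeR, among 3.96% of all genes. These were ASNS, PCK2, PSAT1, PHGDH, ALDH1L2 and GPT2. Both pairs hold a duplex also used to silence VPS4B alone, where low ASNS and PCK2 selected the list. The calls lower are therefore not independent of that choice. ASNS had 136, 42.1, 60.1 and 40.7 rpm with siVPS4A+B#1 and 121, 87.3, 91.9 and 80.6 rpm with siVPS4A+B#2. In each pair some of these values lay within the control range of 84.3 to 368 rpm, and the log2 fold changes against siCTRL#1 were -1.67 ± 0.25 and -1.07 ± 0.25. PCK2 had 68.9, 28.3, 21.6 and 30.9 rpm with siVPS4A+B#1 and 24.9, 15.6, 11.7 and 10.2 rpm with siVPS4A+B#2. The siVPS4A+B#2 libraries lay below all controls, and in the other pair only replicate 1 reached them. PHGDH had 315, 125, 98.1 and 79.9 rpm with siVPS4A+B#1 and 155, 96.3, 99.1 and 70.9 rpm with siVPS4A+B#2, the latter below all controls. PSAT1 had 240.1, 113, 143 and 181 rpm and 259, 196, 272 and 202 rpm, with log2 fold changes of -1.30 and -0.81 against siCTRL#1. GPT2 had 29.6, 12.02, 14.4 and 14.1 rpm and 13.03, 11.1, 6.41 and 9.62 rpm, and fell by 1.13 and 1.83 on the log2 scale against siCTRL#1. GPT2 with siVPS4A+B#2 lay below all controls, whereas PSAT1 reached the control range in at least 1 library of each pair. ALDH1L2 fell by 0.96 and 1.27, but held 2 to 12 reads in the siVPS4A+B#2 libraries. The markers of other cell types summed to 145 to 209.6 rpm with siVPS4A+B#1 and to 115 to 161 rpm with siVPS4A+B#2, and CD68, which encodes a lysosomal membrane glycoprotein, made up 90.4 to 176 rpm and 40.5 to 95.3 rpm of these. Their part in the result was not tested. With siCTRL#2 as the control, 3 genes (ASNS, PSAT1 and PHGDH) were called lower, among 6.76% of all genes, and 2 (SLC38A2 and MARS1) higher, among 10.3%, with both pairs, shares of the program near or below those of all genes, and without replicate 2, 4 were called lower.

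The transcription factors, transporters and synthetases added 0 calls under this rule. ATF4 had 855, 375, 454 and 325 rpm with siVPS4A+B#1 and 727, 614, 747 and 495 rpm with siVPS4A+B#2. Its log2 fold change against siCTRL#1 passed in the first pair (-0.76, limma, adjusted p = 0.00167) and was -0.31 in the second (adjusted p = 0.19). Against NT the first pair did not pass (-0.32, adjusted p = 0.2005). NUPR1 had 9.04, 2.28, 0.835 and 2.198 rpm and 2.03, 1.28, 1.92 and 1.32 rpm, and missed the call against NT in the first pair (-0.36). The synthetases had a median log2 fold change of -0.10 against siCTRL#1 in the first pair and of -0.16 in the second, and the transporters of -0.31 and -0.27, beside -1.14 and -1.07 for the enzymes. Within batches the median over the 40 genes against siCTRL#1 ran from -0.84 in replicate 4 to -0.02 in replicate 3 for siVPS4A+B#1, and from -0.99 in replicate 4 to 0.12 in replicate 3 for siVPS4A+B#2.

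VPS4B silencing was added to VPS4A silencing in 2 pairs that differ in both the VPS4A and the VPS4B duplex, whose parts cannot be told apart. More genes of the program were called lower in the first pair and more were called higher in the second. In the first pair, siVPS4A+B#1 against siVPS4A#2 alone, 15 of 40 genes were called lower, among 12.1% of all genes, and 2 higher, among 11.4%. The 15 held all 9 enzymes, with ASNS at -1.95 ± 0.26, PCK2 at -1.79 ± 0.25 and PHGDH at -1.76 ± 0.24 on the log2 scale (limma, adjusted p = 1.02e-07, 2.64e-07 and 1.85e-07). The duplex added here, siVPS4B#1, was also used alone in cells whose low ASNS and PCK2 selected the list. These calls and p-values are therefore not independent of that choice. PSPH, which was not called with siVPS4A#1, had 36.8, 19.6, 24.5 and 23.3 rpm with siVPS4A+B#1 and 65.7, 53.9, 56.7 and 36.8 rpm with siVPS4A#2, a log2 change of -1.01 between groups that met only at replicate 1 of the pair and replicate 4 of siVPS4A#2. The regulators ATF4 (-0.99), ATF5 (-1.15), DDIT4 (-0.96), CHAC1 (-1.08) and NUPR1 (-1.83) fell as well. Of the synthetases only SARS1, the seryl-tRNA synthetase, fell (-0.62), and of the transporters 0. Within batches the median difference over the 40 genes was -0.29, -0.78, -0.19 and -0.29 in replicates 1 to 4.

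The 2 genes that rose in the first pair were CEBPB and SLC38A2. CEBPB had 19.2, 15.1, 16.9 and 26.8 rpm with siVPS4A+B#1 and 14.1, 11.6, 9.85 and 7.81 rpm with siVPS4A#2, with a log2 fold change of 0.79 ± 0.20. SLC38A2 had 1313, 931, 1342 and 1881 rpm with siVPS4A+B#1 and 823, 724, 587 and 589 rpm with siVPS4A#2, with a log2 fold change of 0.98 ± 0.16. Neither gene's groups overlapped. Without replicate 4, 1 of the 2 was called.

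In the second pair, siVPS4A+B#2 against siVPS4A#1 alone, 24 of 40 genes were called higher, among 8.55% of all genes, and 0 lower, in limma also at an unadjusted p below 0.05 and in DESeq2 and edgeR, among 8.93%. ASNS stood at 121, 87.3, 91.9 and 80.6 rpm against 39.2, 21.9, 14.2 and 11.1 rpm with siVPS4A#1, a rise of 2.10 ± 0.27 on the log2 scale (limma, adjusted p = 1.21e-07). SLC7A11 rose most, by 2.38 ± 0.25, to 219.8, 183, 212 and 138 rpm. CHAC1 rose by 2.26 ± 0.37, to 129, 82.6, 80.1 and 64.6 rpm. In all of these genes each library of the pair lay above each siVPS4A#1 library. SLC38A2 rose here too (1.31), to 1647, 1576, 1318 and 1439 rpm. TRIB3 rose by 1.66, SLC7A5 by 1.35 and ATF4 by 1.02. The calls were 5 of 10 regulators, 4 of 9 enzymes, 7 of 8 transporters and 8 of 13 genes of tRNA charging and export. Among the enzymes, PCK2 (0.46), GPT2 (-0.09), ALDH1L2 (-0.19) and PSPH (-0.10) did not pass, and SHMT2 (0.41) missed the fold limit. Within batches the median difference over the 40 genes was 0.69 in replicate 1, 0.79 in replicate 3 and 0.89 in replicate 4. With the left-out library 19 genes were called higher. The siVPS4A#1 libraries are the lower side of this comparison and also gave the low values above, so the 2 results are not independent. The duplex added here, siVPS4B#2, was also used alone in the cells that selected the list, so these calls are not independent of that choice either.

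The difference between these effects was tested in the same model, in a comparison added after the values had been seen. By arithmetic it is the siVPS4A#2 minus siVPS4A#1 difference plus the siVPS4A+B#2 minus siVPS4A+B#1 difference, on the same libraries, and is no separate evidence. Both pairs hold VPS4B duplexes also used alone in the cells whose low ASNS and PCK2 selected the list. The calls and the p-value here are therefore not independent of that choice. For 30 of 40 genes the change on adding VPS4B silencing was called higher in the second pair than in the first, among 10.1% of all genes, and for 0 lower, among 8.89%, with 1 gene lower at an unadjusted p below 0.05 in limma and 0 in DESeq2 and edgeR. The difference was 4.06 ± 0.37 for ASNS on the log2 scale (limma, adjusted p = 4.42e-10), 3.35 ± 0.51 for CHAC1, 2.89 ± 0.35 for PHGDH and 2.77 ± 0.34 for SLC7A11. With the left-out library 24 genes were called higher and 1 lower.

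The pairs that silenced both paralogs were also compared with each other. Between siVPS4A+B#2 and siVPS4A+B#1, 2 of 40 genes were called higher, among 7.53% of all genes, and 5 lower, among 9.92%, shares of the program (5 and 12.5 percent) that lie near those of all genes. ATF5 was higher, at 63.8, 100.1, 78.8 and 77.9 rpm against 22.3, 32.6, 32.1 and 24.0 rpm, a log2 difference of 1.5 ± 0.24 between groups that did not overlap. PSPH was also higher, at 54.0, 36.7, 59.9 and 31.1 rpm against 36.8, 19.6, 24.5 and 23.3 rpm (0.77), with overlapping libraries. TRIB3 was lower, at 87.6, 83.3, 119 and 81.2 rpm against 369.9, 166, 291 and 300.4 rpm (-1.55). CEBPB was lower as well, at 6.26, 4.70, 8.01 and 5.17 rpm (-1.53), and so were PCK2 (-1.15), GPT2 (-0.70) and LARS1 (-0.71). Without replicate 1 or without replicate 4, 4 genes were called higher in place of 2.

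The controls were also compared among themselves. In siCTRL#1 against NT, 3 of 40 genes were called higher, among 4.84% of all genes, and 0 lower, among 4.21%, with 0 lower at an unadjusted p below 0.05 in limma, 0 in DESeq2 and 1 in edgeR. The 3 were CHAC1 (1.17), NUPR1 (1.38) and YARS1 (0.65). CHAC1 had 133, 97.6, 33.4 and 59.2 rpm in NT and 334, 134, 64.2, 296 and 67.0 rpm with siCTRL#1. NUPR1 had 7.69, 4.03, 1.86 and 3.16 rpm in NT and 31.0, 8.90, 3.05, 24.9 and 5.96 rpm with siCTRL#1. YARS1 had 154, 94.7, 116 and 129 rpm in NT and 259, 114, 175, 290.3 and 135 rpm with siCTRL#1. In all 3 the libraries of the groups overlapped, and those of siCTRL#1 replicates 1 and 4 were the highest. The count is near the share of all genes, and without the replicate block 0 genes were called higher and 1 lower. Without the siCTRL#1 library of replicate 4, 1 gene was called higher and 1 lower, and without replicate 2, 5 were called higher.

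With siCTRL#2 against siCTRL#1, 15 of 40 genes were called lower, among 11% of all genes, and 0 higher, in limma also at an unadjusted p below 0.05 and in DESeq2 and edgeR, among 5.84%. CHAC1, the lowest, had 116, 37.97, 21.5 and 31.7 rpm with siCTRL#2 and a log2 fold change of -1.93 ± 0.34. PCK2 had 66.3, 38.3, 29.2 and 29.5 rpm, with -1.55 ± 0.24. SHMT2 had 115, 82.5, 67.4 and 99.6 rpm, below every NT and siCTRL#1 library, with -1.08 ± 0.14. ASNS, at 330.0, 136, 142 and 138 rpm, and PSAT1, at 647, 297, 473 and 357 rpm, overlapped the siCTRL#1 libraries, with PSAT1 of replicate 1 above all of them. Without the siCTRL#1 library of replicate 4, 5 genes were called lower in place of 15. Within batches the median over the 40 genes was -0.24, -0.30 and -0.01 in replicates 1, 2 and 3, and -1.0 in replicate 4.

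Single silencing of VPS4B, the condition whose low ASNS and PCK2 selected the genes, is given as a description only. In the 4 comparisons of siVPS4B#1 and siVPS4B#2 with NT and siCTRL#1, 13 of 40 genes passed the call lower, among 0.634% of all genes, and 0 higher, among 0.483%, which the choice of the list in part fixed, and nothing was read from these counts. ASNS had 113, 33.3, 32.5 and 29.7 rpm with siVPS4B#1 and 169.5, 48.9, 30.5 and 83.7 rpm with siVPS4B#2. PCK2 had 84.5, 24.4, 26.1 and 20.2 rpm and 143, 28.2, 22.5 and 33.6 rpm. In both genes and with both duplexes replicate 1 was the highest library. PSAT1 had 252, 121, 114 and 127 rpm and 483, 216, 150.1 and 238 rpm, PHGDH had 281, 139, 115 and 87.1 rpm and 316, 134, 105 and 154 rpm, and TRIB3 had 221, 95.9, 108 and 100.4 rpm and 231, 76.9, 62.5 and 68.9 rpm. SLC7A11 had 127, 36.2, 46.8 and 30.0 rpm and 187, 55.5, 44.9 and 72.6 rpm. In these 4 genes as well, replicate 1 was the highest library with each duplex. Among the synthetases SARS1 had the lowest log2 values against siCTRL#1, -1.01 and -1.5. The median of the 40 genes against siCTRL#1 was -0.85 with siVPS4B#1 and -0.53 with siVPS4B#2, and the median of siVPS4A+B#1 relative to siVPS4B#1 was 0.42 and that of siVPS4A+B#2 relative to siVPS4B#2 was 0.24.

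Among 18 genes of the program, the libraries that stood apart from their condition were mostly of replicate 1. In 155 sets of libraries, 18 genes each in up to 9 conditions, 1 library stood apart from the others of its condition by Dixon's criterion in 24, and in 23 of these it was the highest and of replicate 1. All comparisons above carry the replicate number as a block, and without replicate 1 the counts were 26 in place of 28 lower with siVPS4A#1, 5 in place of 6 with both pairs, 14 in place of 15 lower and 24 as before higher on adding VPS4B silencing in the first and second pair.

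Other genes of the pathway were counted in lists of their own. Of 18 genes for eIF2, its exchange factor and its kinases, 0 were called with siVPS4A#1 against both controls. The shares of all genes there were 8.85% lower and 5.73% higher. In all 4 combined comparisons 0 were called, among 4.16% of all genes lower and 3.96% higher. EIF2AK3 (PERK), the kinase that senses unfolded proteins, was called higher when VPS4B silencing was added, by 0.74 in the first pair and 0.71 in the second. The shares of all genes called higher there were 11.4% and 8.55%. EIF2B3, a subunit of the exchange factor, was called lower in the first pair, by -0.72, among 12.1% of all genes. Of 20 further ATF4-linked genes, 16 had a row. With siVPS4A#1, 8 of the 16 were called lower, among 8.85% of all genes, and 0 higher, among 5.73%. In all 4 combined comparisons 3 were higher, among 3.96% of all genes, and 3 lower, among 4.16%. Those higher were ATF3, a stress-induced bZIP factor, at 1.64 and 2.31 against siCTRL#1 in the first and second pair, SESN2, the leucine sensor sestrin 2, at 0.80 and 1.01, and the secreted factor GDF15, at 0.68 and 0.87. NIBAN1, LAMP3 and TUBE1 were lower.

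Synthetases outside the list were counted in the same way. Of 11 other cytosolic synthetases and proteins of their complex, 0 were called with siVPS4A#1 or in all 4 combined comparisons, and of 17 mitochondrial synthetases 0 were called in all 4 combined comparisons. Of 19 other amino acid and one-carbon enzymes, 15 had a row. GOT1, the cytosolic aspartate transaminase, was called lower with siVPS4A#1 (-0.61 against siCTRL#1), and PC, pyruvate carboxylase, higher. GOT1 and SHMT1 were lower and ASL was higher in all 4 combined comparisons. Of 19 other amino acid transporters, 15 had a row. Of these, 3 were called lower with siVPS4A#1, 2 higher, and 1, SLC16A10, lower in all 4 combined comparisons. Among all genes, 8.85% were called lower and 5.73% higher with siVPS4A#1. In all 4 combined comparisons the shares were 4.16% lower and 3.96% higher. Nothing particular to a list was read from these counts. Beyond 4 genes a list, those named here were chosen after their values were seen.

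The calls were set beside the promoter words as a description, with no test. With siVPS4A#1, 8 of 10 genes that held TGATGCAA were called lower, beside 13 of 22 with a window and no match. The median log2 fold change against siCTRL#1 was -1.18 with the word and -1.39 without it. For the looser word the medians were -1.39 with it and -1.14 without it, and 12 of 14 and 9 of 18 genes were called. PCK2, PHGDH and PSAT1 had windows without a match, and no match says only that these letters are not in these windows.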

How the data were processed

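RNA of 38 HCT116 cultures was measured on an Ion Proton with an AmpliSeq panel of human transcripts, aligned by the authors to hg19 amplicons and counted with HTSeq 0.6.0. The deposited signal was each gene's share of the reads over 12627 listed genes. For its differential test the study's methods name a minimum of 10 reads and keep only genes that code for protein in the list of changed genes. How the counts became shares is not given in the sources used here. Whole reads were recovered from the step worth 1 read in each library, and 100% of low values came out whole within a tolerance of 0.1 read. The step was fitted on these values among others, so this is no independent check. Of values above 0, 48.4% were printed to within 0.05 read. Larger values printed less finely were rounded to whole reads without such a check. RefSeq identifiers were matched to symbols for 12471 genes.

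Shares were scaled with TMM factors (edgeR 4.0.16), and log2(rpm + 1) was fitted with limma 3.58.1 in R 4.3.3, over 9 conditions and 37 libraries, blocked on the replicate number, with Benjamini-Hochberg adjustment over 12627 genes. The pairing comes from the labels, in which the number is a batch. Same-numbered libraries had a mean residual correlation of 0.19 and other pairs one of -0.08. Alternatives used DESeq2 1.42.0 and edgeR on the recovered reads, other scalings, pseudocounts, filters, controls and libraries. The limma fit was tested on simulated data. Python 3.11.15, pandas 2.3.3 and matplotlib 3.10.9 drew the figures. The genes and lists were chosen with earlier results of these data known. Values of every library are given for 10 fixed genes and for the 3 called genes with the largest mean change in each tested comparison. Some results of the other lists are not reported here. P-values measure the spread between replicate cultures of 1 cell line.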

Additional observations from a re-analysis of the deposited data

Results flagged for a closer look

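Values of 18 genes were examined in each condition for a library that stands apart from the others (Dixon's criterion, 4 or 5 libraries a condition). Chance flags about 1 in 20 independent sets, or 7.75 of 155, and 24 stood apart. The 18 genes were read in the same libraries, so the sets are not independent, and a high library can be flagged in many genes. The criterion was applied to linear rpm, and no conclusion is drawn from the excess over the chance number. In 23 of the 24 sets the library was of replicate 1 and was the highest.

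In siVPS4B#1 replicate 1, the level was 113 rpm for ASNS, 84.5 rpm for PCK2, 252 rpm for PSAT1, 221 rpm for TRIB3, 207 rpm for CHAC1, 6.56 rpm for NUPR1 and 37.4 rpm for PSPH. In siVPS4B#2 replicate 1, it was 143 rpm for PCK2, 231 rpm for TRIB3, 332 rpm for CHAC1, 1455 rpm for SLC7A5 and 16.5 rpm for NUPR1. In siCTRL#2 replicate 1, it was 330.0 rpm for ASNS, 371 rpm for TRIB3, 208 rpm for SLC7A11 and 13.99 rpm for NUPR1. In siVPS4A+B#1 replicate 1, it was 254 rpm for CHAC1, 1833 rpm for SLC7A5 and 29.6 rpm for GPT2. In siVPS4A#1 replicate 1, it was 41.2 rpm for CHAC1 and 462 rpm for SLC7A5. GPT2 had 46.4 rpm in siVPS4A#2 replicate 1, and CEBPB had 27.5 rpm in NT replicate 1. The library not of replicate 1 was siVPS4A+B#2 replicate 3, where TRIB3 had 119 rpm.

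Effects of the duplexes differed in tests of the difference itself. Of 40 genes, 33 were called lower with siVPS4A#1 than with siVPS4A#2, among 12.3% of all genes. For 30, among 10.1% of all genes, the change on adding VPS4B silencing was called higher in the second pair than in the first. That difference is made of the same libraries as the other comparisons of this paragraph and is no separate evidence. It was added after the values had been seen, and its pairs hold the VPS4B duplexes of the cells that selected the list. Between the pairs themselves, 2 genes were called higher with siVPS4A+B#2, among 7.53% of all genes, and 5 lower, among 9.92%. These shares of the program, 5 and 12.5 percent, lie near those of all genes.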

How the results depend on the processing

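Of 2805 recomputed values of 163 gene results, 2665 kept direction and side of the threshold, 139 no longer passed and 1 reversed. Of 346 recomputed counts, 323 stayed within 1.5 times the reported ones. Except with siCTRL#2 as the control, recomputed counts are given here and above without their own share of all genes. Those shares are not reported here, so from the printed counts a shift in the program cannot be told from a shift over all genes. The cause of the changes below was not tested.

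Without the replicate block, that is without the pairing of the libraries, 0 genes were called higher and 1 lower in siCTRL#1 against NT, 5 lower in siCTRL#2 against siCTRL#1, and 3 lower in siVPS4A+B#2 against siVPS4A+B#1. The block moved no other count by over 1.5 times. With edgeR, 1 gene was lower in siCTRL#1 against NT. With no minimum fold change, 2 genes were lower in siCTRL#1 against NT, 1 was higher in siCTRL#2 against siCTRL#1, and 5 were higher in siVPS4A+B#2 against siVPS4A+B#1. With the library labelled siVPS4A#1 replicate 2, 1 gene was lower in the difference between the pairs. With siCTRL#2 as the control, 2 genes were higher and 3 lower with both pairs, 1 was higher with siVPS4A#1 and 17 were higher with siVPS4A#2, and the mean log2 fold change of SHMT2 with siVPS4A#1 turned to 0.43.

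Leaving out 1 replicate number, or the siCTRL#1 library of replicate 4 alone (an alternative chosen after seeing the data), gave 1 to 5 genes higher and 0 to 3 lower in siCTRL#1 against NT, 5 to 16 lower in siCTRL#2 against siCTRL#1, 2 to 4 higher in siVPS4A+B#2 against siVPS4A+B#1, and 1 to 2 higher on adding VPS4B silencing in the first pair. The same omissions gave 26 to 30 lower with siVPS4A#1, 4 to 6 lower with both pairs and 23 to 24 higher on adding VPS4B silencing in the second pair. Depth limits DDIT3 and SLC6A9, which held at most 6 and 12 reads in any library.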

Other observations

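The library labelled siVPS4A#1 replicate 2, which entered no comparison above, held ASNS at 35.6 rpm, PCK2 at 29.1 rpm and PHGDH at 51.8 rpm. It held TRIB3 at 231 rpm and SLC7A11 at 125 rpm, above the 4 other siVPS4A#1 libraries, and ATF5 at 17.8 rpm, below them. These values rest on 669257 reads and were scaled with all 38 libraries.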
